A study of Drosophila mojavensis with 95 samples.

Results

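The transcripts described here are the 50, of 14528 measured, whose level in flies from Organ Pipe National Monument (OPNM; spelled Manument in the labels) lay furthest outside the levels of 3 other populations of Drosophila mojavensis. They were chosen from the measured values. The arrays of each of 24 groups were averaged, and a population's mean was the equal-weight mean of its 6 groups. A transcript was eligible if its means at 0, 9 and 18 h of desiccation, over all populations and diets, differed by less than 0.3 on the log2 scale and if the means of the other 3 populations lay within 0.585 (1.5-fold) of each other. The 9990 eligible transcripts were ranked by the gap between the OPNM mean and the nearest of the other 3 means, and the first 50 were kept, 29 higher and 21 lower in OPNM. The OPNM level of these transcripts is therefore given below as a description, with no test.

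Drosophila mojavensis is a desert fly of northwestern Mexico and the southwestern United States that breeds in rotting cactus. Its populations use different host cacti, among them agria and organ pipe in the Sonoran Desert and Baja California, and the species is known for surviving drier air than most fruit flies. In flies under desiccation, water is lost through the cuticle, the spiracles and excretion, and an insect's supply of water and stored energy falls with time.

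The study compared RNA from whole bodies of wild-type virgin females on 95 one-colour NimbleGen arrays labelled with Cy3. The groups were OPNM (25 arrays) and Punta Onah (PO, 23 arrays) from the Sonoran side and Punta Prieta (PP, 25 arrays) and San Quintin (SQ, 22 arrays) from Baja California, each reared on laboratory medium made from organ pipe (OP) or agria (AG) cactus and each sampled at 0, 9 or 18 h of desiccation. All flies carried the wild-type genotype of their population, and all cultures shared a daily cycle of light and temperature. The labels name no undesiccated flies at 9 or 18 h, so effects of elapsed time cannot be told apart from those of desiccation.

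Each of the 24 groups held 3 to 5 arrays, with 3 groups of 3, 19 of 4 and 2 of 5. The labels number the arrays of a group as replicates and do not say whether these came from separate cultures, so the p-values measure only the spread between these arrays. Values are the authors' log2 signals, which ran from 4.52 to 15.6. Array medians lay between 10.17 and 10.40. The number of arrays limits the precision, and the height of a dim signal over background is not known. A whole-body signal cannot tell fewer cells of a type apart from less RNA per cell, and whether the probes bind the RNA of all 4 populations alike was not measured here.

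Some arrays stood apart from their labels. Over the 500 other transcripts whose population means differed most, 8 of the 95 arrays lay nearer to another population than to the rest of their own group; 0 of these were from OPNM and 0 lay nearest to OPNM. The 2 with the widest margins were PP arrays. The third PP organ pipe array at 0 h lay nearest to SQ, at a root-mean-square distance of 0.362 against 0.598 from its own group. The fourth lay nearest to PO, at 0.378 against 0.920. Over the 500 transcripts that differed most between hours, 5 OPNM and 7 PP arrays lay nearer to another hour of the other populations than to their own, among them all 4 OPNM agria arrays labelled 0 h, which were nearest to 9 h. Without the third and the fourth PP organ pipe arrays at 0 h the rule chose 45 of the 50 members again, without all 8 arrays 43, and without the 4 OPNM arrays 38.

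The rows carry FlyBase transcript identifiers, and 0 of them occur in the reference gene table of 15130 genes used here. The 50 members are therefore reported by identifier, few of them by name, and what their products do is not given. No sequence is shown because none could be matched to an identifier.

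The members differed from the rest of the flies by small steps. The gap between OPNM and the nearest other population ran from 0.27 to 1.35 on the log2 scale, with a median of 0.33 (1.26-fold) and a highest of 2.55-fold. Only 7 of the 50 had a gap of at least 1.5-fold, 4 higher and 3 lower. Measured against the mean of the other 3 populations, the median difference was 0.43 for the 29 higher members and -0.49 for the 21 lower members. The plot of population means shows 1 member far above the rest and a dense band of small gaps. The cut at 50 fell in that band: ranks 48, 49 and 50 had gaps of 0.268, 0.268 and 0.266, and ranks 51, 52 and 53 had 0.266, 0.265 and 0.263.

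**Figure D1:**
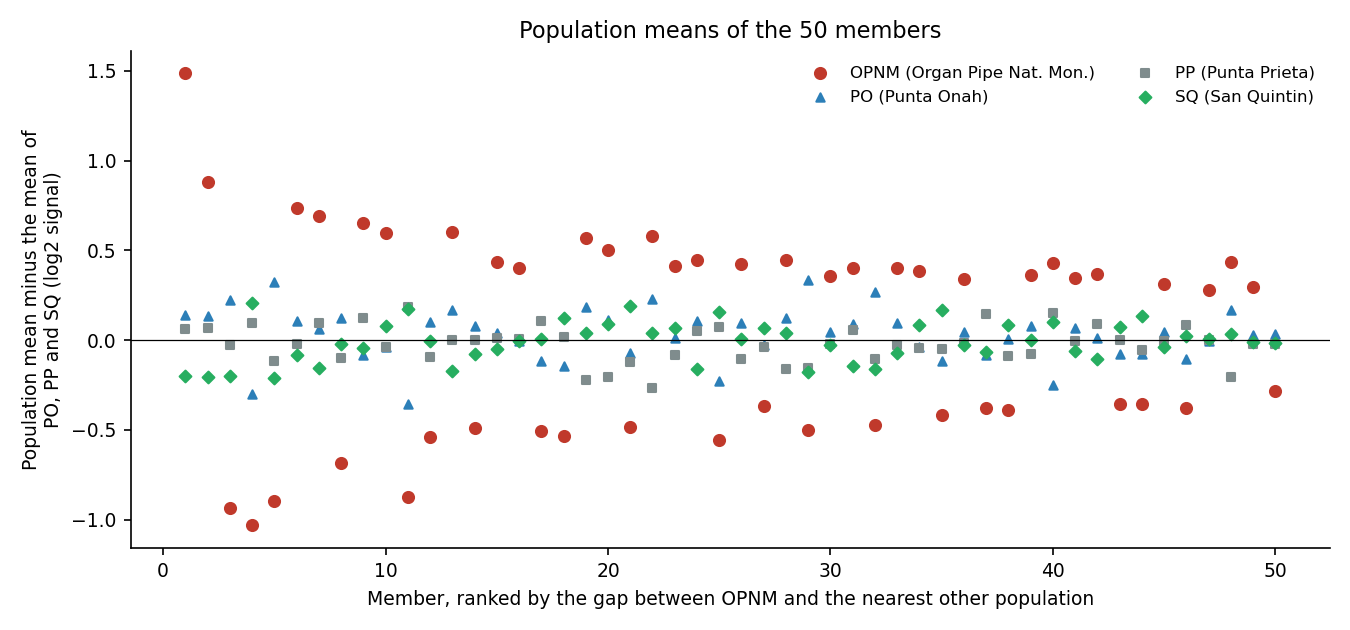
Population means of the 50 members (y axis, log2 signal, as the difference from the mean of PO, PP and SQ), ordered by the gap that chose them (x axis, rank). The OPNM points (circles) lie outside the other 3 at every rank by construction, and the gap is 1.35 at rank 1 and 0.27 at rank 50.

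Under the same rule, the other populations gave lists of other shapes. The fiftieth gap was 0.27 for OPNM, 0.34 for PO, 0.23 for PP and 0.30 for SQ, and the largest was 1.35, 1.15, 0.47 and 0.66 in the same order. Gaps of at least 1.5-fold were held by 7 of the 50 OPNM transcripts, 9 of the 50 for PO, 0 for PP and 1 for SQ. The OPNM list was split 29 higher to 21 lower, where the PO list held 44 higher and 6 lower, the PP list 18 and 32, and the SQ list 38 and 12. The OPNM list shared 3 transcripts (6% of each list) with PO, 4 (8%) with PP and 0 with SQ. The rule fixes that a transcript on the lists of 2 populations is higher in one and lower in the other. The lists rest on the same 24 group means, so these counts are descriptions.

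FBtr0173075 was the member furthest above the other populations. Its lowest, median and highest array values were 10.36, 11.09 and 11.96 in OPNM. They were 8.71, 9.88 and 10.86 in PO, 9.03, 9.64 and 10.37 in PP, and 8.82, 9.46 and 9.97 in SQ. Most OPNM arrays were above every other array (18 of 25), and 3 of the other 70 arrays reached the OPNM range. The OPNM mean was 2.55-fold above that of PO, the nearest population, and 1.49 on the log2 scale above the mean of all 3. It was higher in every combination of diet and time, by 1.69, 1.68 and 1.19 on agria at 0, 9 and 18 h and by 1.83, 1.19 and 1.33 on organ pipe.

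FBtr0168223 was second among the higher members and much dimmer. Its lowest, median and highest values were 6.47, 7.16 and 7.70 in OPNM. They were 5.63, 6.37 and 7.41 in PO, 5.94, 6.30 and 7.06 in PP, and 5.00, 6.14 and 6.77 in SQ. The ranges overlapped: 5 OPNM arrays were above every other array, and 20 of the other 70 reached the OPNM range. The gap was 0.74 (1.67-fold). Its mean over all arrays, 6.50, was higher than that of only 1.29% of transcripts, and how much of that signal is background was not measured.

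FBtr0167284 and FBtr0164374 had the largest gaps among the lower members. FBtr0167284 had lowest, median and highest values of 9.71, 10.43 and 11.02 in OPNM, against 10.98, 11.61 and 11.98 in PO, 10.74, 11.28 and 11.68 in PP, and 10.45, 11.10 and 11.87 in SQ. Its OPNM arrays met the PO arrays only at the edge of their ranges, and 13 of the 25 lay below all other arrays. The gap was 0.73, with SQ nearest, and the difference from the mean of the 3 was -0.93.

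FBtr0164374 had 6.88, 7.55 and 8.37 in OPNM, against 7.61, 8.22 and 9.23 in PO, 7.99, 8.71 and 9.38 in PP, and 8.39, 8.77 and 9.46 in SQ. Every SQ array was above every OPNM array, while the PO and PP ranges overlapped the OPNM range. Below all other arrays lay 16 of the 25 OPNM arrays. The gap was 0.73, with PO nearest, and the difference from the mean of the 3 was -1.03, a level 2.04-fold lower in OPNM.

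**Figure D2:**
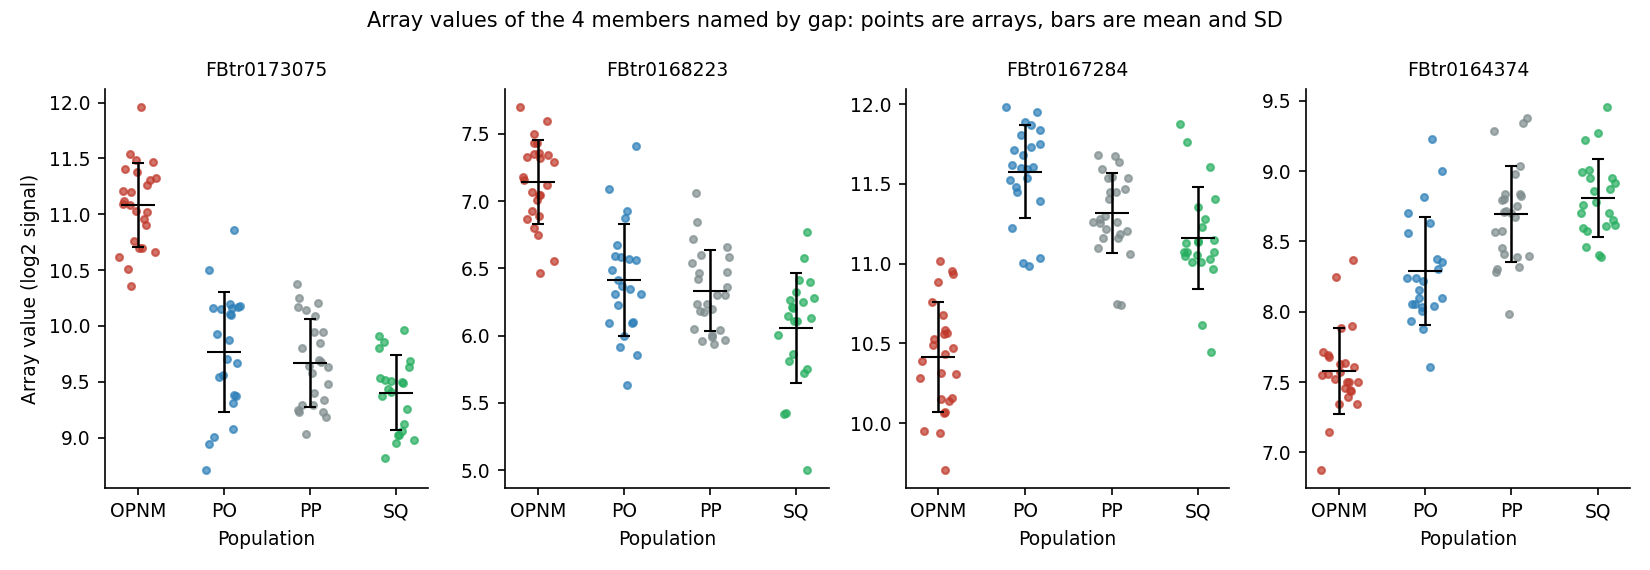
Array values (y axis, log2 signal, a separate scale in each panel) of the 4 members with the largest gaps, by population (x axis). Points are arrays, and bars are the mean and SD over the arrays of a population. The OPNM points of FBtr0173075 lie between 10.36 and 11.96, and its PO points between 8.71 and 10.86.

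The members were spread over most of the brightness range. Their median level was 9.65, against 10.29 for all 14528, and 7 of 50 had a mean under 8, against 15.1% of all. The within-group SD of a member ran from 0.121 to 0.363 with a median of 0.256, where the median of all transcripts was 0.201 and that of the eligible ones 0.183. Set against transcripts of like brightness, 30 of 50 members were above the median SD. FBtr0173075 had the largest SD, at 0.363.

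FBtr0171544 had the smallest SD, at 0.121, and lay near the end of the list at rank 43. Its lowest, median and highest values were 9.16, 9.41 and 9.69 in OPNM, against 9.39, 9.75 and 10.02 in PO, 9.62, 9.78 and 10.04 in PP, and 9.47, 9.85 and 10.18 in SQ. A difference of -0.36 from the mean of the other 3 thus came with tight groups, and 9 of the 25 OPNM arrays were below all others.

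Population took a median of 41.6% of a member's variance over the 95 arrays (21.6% to 75.0%), against 7.40% for all transcripts. This share follows from the choice of members, as does the low share of time, at a median of 4.49% against 14.4%. Diet was not used in the choice, and took 0.283% of the variance of the median member and 0.266% of that of the median transcript. A median of 34.7% lay inside groups.

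The rule used population means, and not the 6 combinations of diet and time one by one, though these make up the means. In 33 of the 50 members (18 higher, 15 lower) the OPNM group mean was beyond all 3 other group means in all 6 combinations, in 14 it was so in 5 and in 3 in 4. Over all transcripts 2.11% were beyond in all 6. The rule used these same group means, so nothing is read from the contrast.

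The members' OPNM difference was seen in each combination. On agria, 41, 45 and 47 members were beyond the others in their own direction at 0, 9 and 18 h, and on organ pipe 49, 49 and 49. In the same order, 57.7%, 75.8%, 35.8%, 38.4%, 66.5% and 34.2% of all transcripts had an OPNM mean beyond the other 3 in either direction. Members were counted in their own direction only, so these shares are not a like comparison. The median size of the members' difference was 0.42, 0.44 and 0.46 on agria and 0.39, 0.52 and 0.56 on organ pipe. The combination with the fewest members, agria at 0 h, holds the 4 OPNM arrays that lay nearer to the 9 h mean of the other populations.

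**Figure D3:**
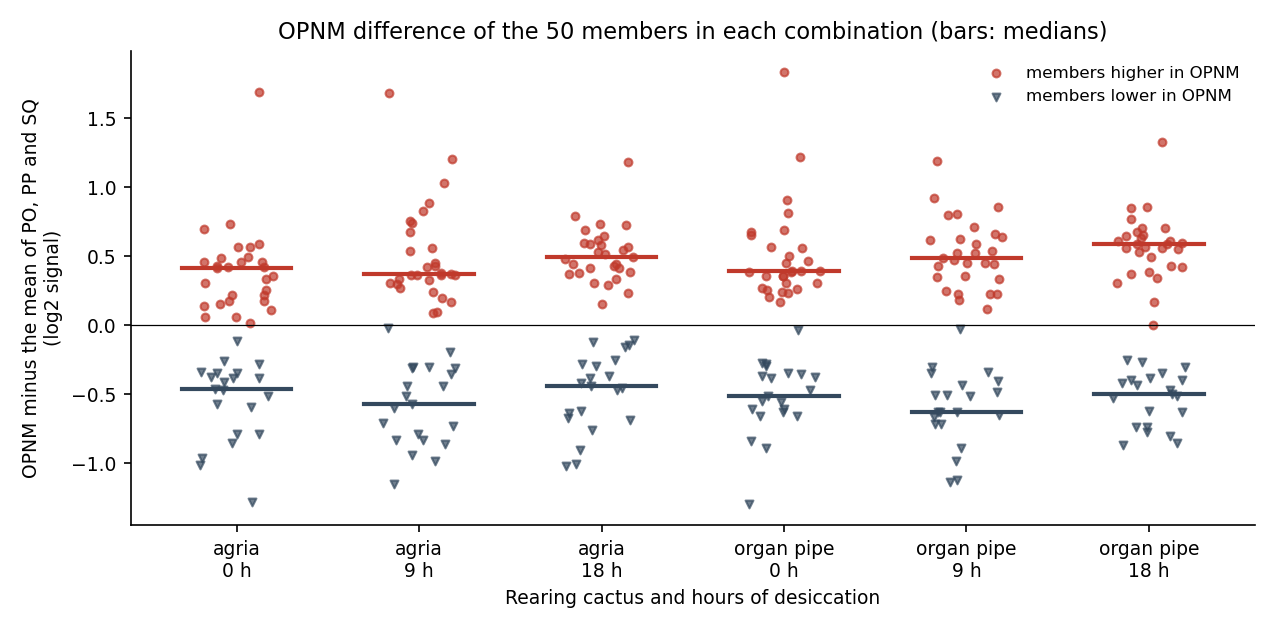
OPNM mean minus the mean of PO, PP and SQ (y axis, log2 signal) of the 50 members in each combination of rearing cactus and hours of desiccation (x axis). Points are members, and bars are the medians of the members higher and lower in OPNM. The sizes overlap widely between combinations. The bars lie from 0.37 to 0.59 for the higher members and from -0.62 to -0.44 for the lower members.

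No single member separated the populations array by array. In 0 of the 50 members did the 25 OPNM arrays lie entirely outside the other 70, and this was so for 0% of all transcripts. The number of OPNM arrays beyond all other arrays ran from 0 to 20 per member, with a median of 5.5. The number beyond the median of the other arrays ran from 21 to 25, with a median of 24.

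Over the list as a whole the arrays did separate, which the choice of members favours. Each array was given a position for each member, from 0 at the mean of the other 3 populations to 1 at the OPNM mean, and the median over the 50 members was taken. This position ran from 0.676 to 1.33 in OPNM (median 1.02), from -0.326 to 0.391 in PO, from -0.245 to 0.219 in PP and from -0.250 to 0.0544 in SQ. All OPNM arrays were above all others. The lowest OPNM array was the first agria array at 0 h, and the highest of the others was the second PO organ pipe array at 18 h.

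By member counts, an OPNM array was nearer to the OPNM mean in 33 to 48 of the 50 members, a PO array in 6 to 24, a PP array in 4 to 15 and an SQ array in 3 to 14. The third and the fourth PP organ pipe arrays at 0 h had positions of -0.144 and 0.0240, within the range of the other PP arrays. The 4 OPNM agria arrays at 0 h had positions from 0.676 to 0.920, with a median of 0.880. The other OPNM groups had medians from 0.941 to 1.11. Their single arrays reached down to 0.815, in agria at 18 h, so the arrays overlapped.

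**Figure D4:**
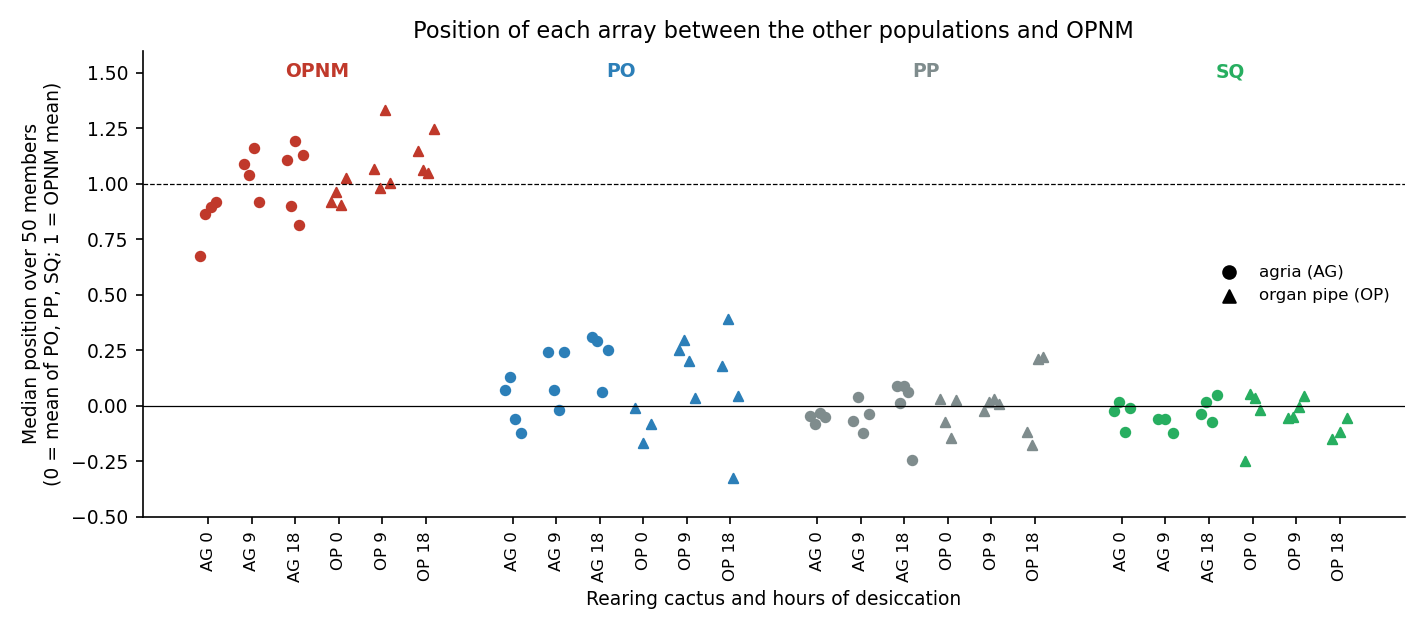
Median position of each array over the 50 members (y axis, 0 at the mean of PO, PP and SQ and 1 at the OPNM mean), by population, rearing cactus and hours of desiccation (x axis). Points are arrays, circles for agria and triangles for organ pipe. OPNM arrays lie between 0.676 and 1.33 and the highest other array at 0.391.

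PO, the other Sonoran population, was the nearest to OPNM in 30 of the 50 members (60%), PP in 11 (22%) and SQ in 9 (18%). Among the 4662 eligible transcripts in which OPNM lay outside the other 3 by any gap, PO was nearest in 2393 (51.3%), PP in 1024 and SQ in 1245 (26.7%). Nothing is called particular to the members from these shares.

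Inside groups, few pairs of members were strongly correlated. Over the 95 arrays, after subtracting each group's mean, the median correlation over the 1225 pairs of members was 0.049. Pairs above 0.5 made up 7.18% of these, against 9.21% of all pairs of transcripts, and pairs below -0.5 made up 2.45% against 4.89%. The closest pair was FBtr0167284 and the lower member at rank 5, with r = 0.794 over 95 arrays. This pair was picked out after the values were seen.

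The arrays share a common axis of within-group variation, the first component of the deviations from the group means, which held 41.8% of the within-group variance over all transcripts. Of the 50 members 38% correlated with it beyond 0.5 in either direction, against 46.2% of all transcripts. FBtr0173075 was among them, at r = -0.753. The closest pair had r = 0.793 with the axis removed, against 0.794 with it.

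Whether the members also responded to desiccation in another way in OPNM was tested with limma as the 18 h change in OPNM minus the mean 18 h change in PO, PP and SQ. The weights of this contrast are orthogonal to the population and time means that chose the members. FBtr0168233 (rank 33, higher in OPNM) was the 1 member of 50 that passed an adjusted p of 0.05. Of all transcripts 2.42% passed (1.67% higher and 0.743% lower), so the count at this threshold is near the background. The split of all calls, 243 higher and 108 lower, was 260 higher and 331 lower with median centring of the arrays. Without the third and the fourth PP organ pipe arrays at 0 h 2 members passed. Without all 8 arrays nearest to another population 6 passed (863 of all transcripts). Without the 4 OPNM agria arrays at 0 h 0 passed, but there the OPNM mean at 0 h came from organ pipe alone. At an unadjusted p under 0.05 the members' share was larger, with 15 of the 50 members against 2492 of the 14528 transcripts. Why was not tested. The members' differences ran from -0.50 to 0.52. Their median was 0.075, against -0.0092 for all transcripts, and the median size was 0.136 against 0.111. The difference was positive in 20 of the 29 higher and 14 of the 21 lower members. The share over all transcripts was not counted and members share within-group variation, so no shift of the list is read from this. The median 95% confidence interval reached 0.29 to either side.

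FBtr0168233 had 11.14, 11.14, 11.26, 10.93 and 11.32 in the OPNM agria arrays at 18 h, against 10.75, 10.73, 10.56 and 10.53 at 0 h. On organ pipe the OPNM arrays had 11.04, 10.93, 11.03 and 11.47 at 18 h, against 10.70, 11.02, 11.20 and 10.91 at 0 h. The agria groups did not overlap and the organ pipe groups did. The 18 h change was 0.34 ± 0.087 (SE) in OPNM, against 0.07 ± 0.093 in PO, 0.04 ± 0.087 in PP and -0.16 ± 0.093 in SQ.

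The change in OPNM exceeded the mean of the others by 0.35 ± 0.102 (SE; adjusted p = 0.0411 by limma). The call was lost without the OPNM agria arrays at 0 h, where the difference was 0.20 (adjusted p = 0.656 by limma). In that setting the OPNM mean at 0 h came from organ pipe alone. The other populations kept both diets, so the setting mixes diet with time. From organ pipe arrays alone the difference was 0.20 (adjusted p = 0.844). The call was also lost without any one of 19 single arrays, with adjusted p from 0.0501 to 0.165. Of these arrays 8 were OPNM, 5 PO, 4 PP and 2 SQ. Before desiccation on agria, FBtr0168233 was only 0.02 above the mean of the other populations, and in the 5 other combinations it was 0.38 to 0.59 above. On agria it was 0.53 above at 18 h, and on organ pipe 0.40 above at 0 h and 0.59 above at 18 h.

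The 2 members with the extreme differences did not pass. FBtr0164374 differed by 0.52 ± 0.174 (adjusted p = 0.0903), with an 18 h change of 0.12 ± 0.149 in OPNM, against -0.54 ± 0.159 in PO, -0.31 ± 0.149 in PP and -0.35 ± 0.159 in SQ. Its OPNM mean was thus further below the others at 0 h, by 1.28 on agria and 1.29 on organ pipe, than at 18 h, by 0.67 and 0.85.

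FBtr0173075 differed by -0.50 ± 0.203 (adjusted p = 0.173). Its 18 h change was -0.12 ± 0.174 in OPNM, against 0.99 ± 0.185 in PO, 0.12 ± 0.174 in PP and 0.03 ± 0.185 in SQ. The PO organ pipe arrays had 10.15, 10.86, 10.17 and 10.50 at 18 h, against 9.31, 9.08 and 9.01 at 0 h. Every PO organ pipe array at 18 h was thus above every one at 0 h. Over all populations its means at the 3 hours differed by 0.25, inside the limit of the rule. Whether the PO change differed from the others was not tested.

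**Figure D5:**
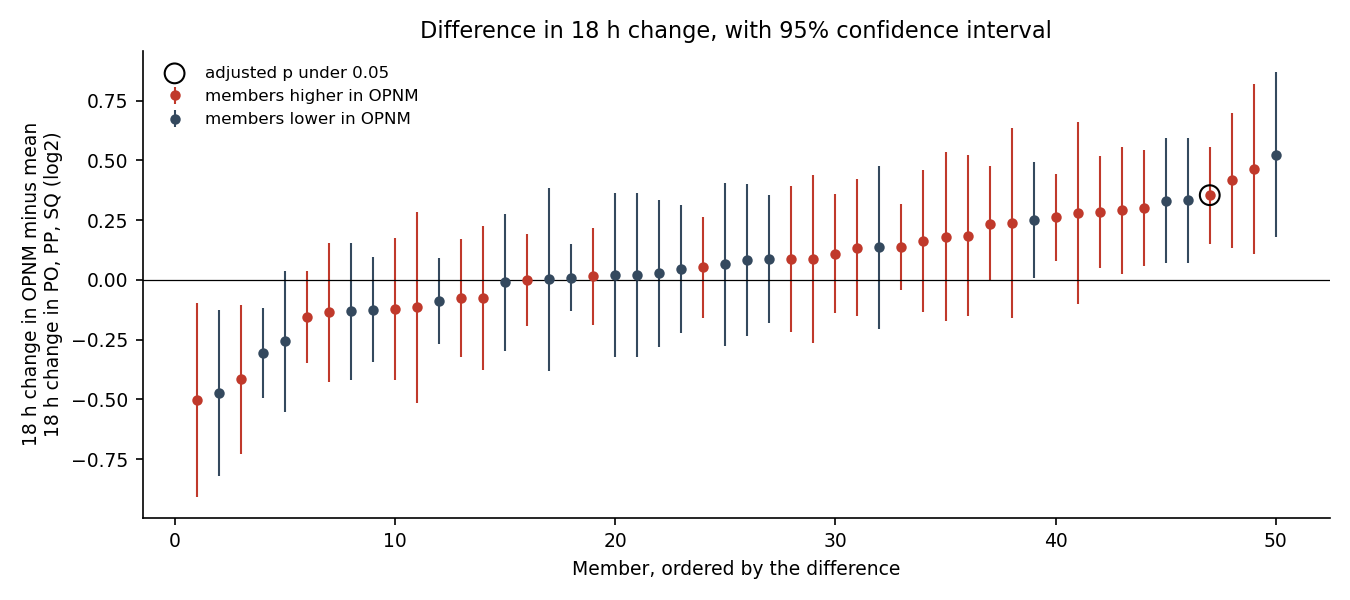
Difference between the 18 h change in OPNM and the mean 18 h change in PO, PP and SQ (y axis, log2 signal) for the 50 members, ordered by that difference (x axis). Points are limma estimates, lines are 95% confidence intervals, and the ringed point is FBtr0168233, at 0.35. The estimates run from -0.50 to 0.52.

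At 9 h the same comparison called 0 of the 50 members and 0.523% of all transcripts by limma (0.475% higher and 0.0482% lower). At an unadjusted p under 0.05 there were 5 members and 1738 transcripts. The members' differences ran from -0.40 to 0.37, and the smallest adjusted p was 0.0784. FBtr0168233 differed by 0.22 ± 0.104 at 9 h (adjusted p = 0.396).

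Without regard to tests, the members' own 18 h changes had medians of 0.15 in OPNM, 0.06 in PO, -2.2e-05 in PP and 0.00075 in SQ. In OPNM the median was 0.22 for the higher members and 0.09 for the lower members. Over all transcripts the medians were 0.010, 0.014, -0.046 and -0.025 in the same order of populations. The rule held the average time change down, so the small medians follow in part from it.

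No member passed a test of the cactus on which the flies were reared. Inside OPNM, organ pipe minus agria ran from -0.22 to 0.40 and 0 of the 50 members were called by limma, against 0.0275% of all transcripts (0.0206% higher and 0.00688% lower). At an unadjusted p under 0.05 there were 5 members and 1214 transcripts, and the smallest adjusted p of a member was 0.210. The median size was 0.115, against 0.068 for all transcripts. The median 95% interval of a member reached 0.20 to either side. The diet difference in OPNM minus the mean of those in the other populations called 0 members and 0% of all transcripts, with members from -0.24 to 0.39 and 6 members and 716 transcripts at an unadjusted p under 0.05. The median size was 0.105 against 0.066.

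Over all populations, diet called 0 members and 0.0138% of all transcripts, with members from -0.11 to 0.14 and a median size of 0.041 against 0.024. At an unadjusted p under 0.05 there were 5 members and 470 transcripts, and the smallest adjusted p of a member was 0.998. For FBtr0173075, the organ pipe minus agria difference was -0.16 ± 0.143 in OPNM, against 0.09 ± 0.149 in PO, -0.17 ± 0.143 in PP and -0.21 ± 0.153 in SQ.

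For reference, limma called 24.2% of all transcripts (11.6% higher, 12.6% lower) when OPNM was set against the mean of PO, PP and SQ, and all 50 members were among them. The rule used this contrast, so nothing is read from the members' count.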

How the data were processed

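Whole-body RNA of virgin females was measured on 95 one-colour arrays in 24 groups of population, diet and time. The authors deposited 1 log2 value per transcript and array, made with RMA (background correction, quantile normalization and summary of probes) per the submitters' processing notes, which give no version. The table holds 14528 transcripts, and 0 columns were left without a sample. In a note beside the table, 4 arrays are said to come from a later order of the arrays.

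Members were found by the stated rule with Python 3.11.15, pandas 2.3.3 and numpy 2.4.6. A limma 3.58.1 model (R 4.3.3) with a mean for each of the 24 groups and 71 residual degrees of freedom was used, without filter, block or covariate. Two-sided p-values were adjusted over all 14528 transcripts by the Benjamini-Hochberg method, and calls were made below 0.05. The 5 tested comparisons have weights orthogonal to those that chose the members. Data were simulated for the 18 h comparison over 14528 transcripts. Changes of 0.25, 0.5, 1 and 2 on the log2 scale were recovered in 20%, 80%, 98% and 100% of cases. The simulated noise was independent between transcripts, without the shared axis, and the changed transcripts were drawn at random. Members had a larger within-group SD (median 0.256 against 0.201 for all), so these shares are not the recovery of members.

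Members named are, by rule, the 2 with the largest gap in each direction, those with the largest and smallest within-group SD, and members called in a test. Members, lists and tests were chosen with earlier results of these data known. Product-name groups that had been planned could not be joined to the identifiers and gave no result. Alternatives were median centring, quantile normalization, array weights, the shared axis as a covariate, the replicate block, a filter on a mean level under 7, single diets, and leaving out replicates, single arrays, the arrays that stood apart (all 8 nearest to another population as an alternative chosen after seeing the data) and those of the later order. For the rule alone, population means over arrays and medians within groups were also tried.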

Additional observations from a re-analysis of the deposited data

Results flagged for a closer look

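A single array far from the others was sought in 147 checks, and 5 found one. Each check took 1 named member, or the median position, in 1 group of 4 or 5 arrays. The groups of 3 were not examined. Chance gives about 1 in 20 checks, so the 5 are not above that share and are listed only as values. FBtr0168223 was at 7.06 in the second PP agria array at 18 h, where the other 4 arrays of the group had 6.23 to 6.36. FBtr0164374 was at 6.88 in the third OPNM organ pipe array at 9 h, where the others had 7.50 to 7.56. It was at 8.95 in the fourth SQ organ pipe array at 9 h, where the others had 8.58 to 8.61. FBtr0168233 was at 10.95 in the second PO agria array at 18 h, where the others had 10.73 to 10.75. The fifth PP agria array at 18 h had a median position of -0.245 over the 50 members, where the other 4 had 0.0127 to 0.0913.

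The 18 h change of FBtr0168233 differed between OPNM and the mean of the other populations, by 0.35 (adjusted p = 0.0411 by limma), and that difference was itself the test. The call was lost without the OPNM agria arrays at 0 h (0.20, adjusted p = 0.656 by limma). In that setting the OPNM mean at 0 h came from organ pipe alone. The call was also lost from organ pipe arrays alone (0.20, adjusted p = 0.844) and without any of the 5 replicate numbers (adjusted p 0.0706 to 0.281).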

How the results depend on the processing

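The OPNM minus others difference of the 6 named members kept its direction in all 107 alternative values. It moved by less than the member's within-group SD in each. The rule used this difference and most alternatives kept most arrays, so nothing is read from this. FBtr0168223 had no value under the filter on a mean level under 7. The list itself depended on the arrays: of the 50 members the rule chose 31 to 46 again without 1 replicate number, 24 from agria and 29 from organ pipe arrays alone, and 44 to 50 without any single array. It chose 41 with median centring and 39 with quantile normalization. The 18 h comparison called 1 member and 351 transcripts. It called 2 and 591 with median centring. With quantile normalization it called 3 members, and 279 of all transcripts higher and 164 lower. With array weights it called 5 and 1004, and with the shared axis as a covariate 9 and 1848 (12.7% of all). Without the third and the fourth PP organ pipe arrays at 0 h it called 2 and 529. Without all 8 arrays nearest to another population (chosen after seeing the data) it called 6 and 863. Without the OPNM agria arrays at 0 h it called 0 and 51, and from organ pipe arrays alone 0 and 18. From agria arrays alone it called 174 transcripts. Without a replicate number it called 0 to 2 members and 97 to 253 transcripts, and without a single array 0 to 3 and 223 to 693. The member count of 3 came without the second PO organ pipe, the fourth OPNM agria or the third PP organ pipe array at 18 h. The transcript count was lowest without the third and highest without the fourth OPNM agria array at 18 h. For FBtr0168233 the difference was 0.304 to 0.445 without a replicate number (adjusted p 0.0706 to 0.281).

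The 9 h comparison called 0 members and 76 transcripts. It called 6 and 787 with array weights, 2 and 574 with the shared axis, 2 and 1234 from agria arrays alone, and 6 transcripts each from organ pipe arrays alone and without the OPNM agria arrays at 0 h. It called 16 to 84 transcripts without a replicate number, and up to 1 member and 48 to 95 transcripts without a single array. Diet inside OPNM called 0 and 4, 4 and 369 with array weights, 3 and 885 with the shared axis, 0 to 6 transcripts without a replicate number, and up to 1 member and 0 to 11 transcripts without a single array. The diet interaction called 0 and 0, 2 and 86 with array weights, 1 and 141 with the shared axis, 0 to 1 transcript without a replicate number and up to 3 without a single array. Diet over all populations called 0 and 2, 1 and 138 with array weights, 11 transcripts with the shared axis, 0 to 3 without a replicate number, 1 without the arrays of the later order and without the 8 arrays and 2 to 4 without a single array. The diet comparisons without the OPNM agria arrays at 0 h were not run. The 18 h and 9 h comparisons without these arrays took the OPNM mean at 0 h from organ pipe alone, so they mix diet with time. The causes were not tested. With the shared axis the members called at 18 h were 6 higher and 3 lower.

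Averaged over all groups, arrays of 1 replicate number were no more alike than others. Deviations from group means correlated at -0.0096 on average between arrays of 1 number and at 0.0034 between other numbers. Of 95 arrays, 41 were nearer to their own number. A pairing confined to some populations or diets could be hidden by these averages and was not tested. With the replicate block the 18 h comparison called 2 members. The share of all transcripts is not given for this setting, so nothing is read from that count. No member is above background by a known amount, since no detection calls were used.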
